A study of Mus musculus with 6 samples.

Results

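The genes described here encode 10 subunits of the Polycomb repressive complexes, which were selected by gene symbol among the 26656 genes listed in the expression tables of N2a cells. They comprise 7 subunits of PRC2 (*Ezh1*, *Ezh2*, *Eed*, *Suz12*, *Jarid2*, *Rbbp4* and *Rbbp7*) and 3 subunits of PRC1 (*Rnf2*, *Ring1* and *Bmi1*), and all 10 symbols were found. N2a is an established mouse neuroblastoma line. The cells, of wild-type genotype, were transfected with the plasmid pLKO.1-shNpm1, which expresses a short hairpin RNA against *Npm1* (NPM1 KD, 3 libraries), or with pLKO.1-shCTR, which carries a non-target hairpin (CTR, 3 libraries). Cells of both groups were kept under 9.3 µg/ml puromycin from 24 h after transfection and were harvested at 72 h, so the controls share the plasmid backbone and the selection. A single hairpin was used against *Npm1*, and total RNA was converted to cDNA and read on a long-read nanopore sequencer. The series was made to ask whether the transcriptome changes when NPM1, and with it the histone mark H3K79me2, is altered. The design text gives 3 biological replicates per group and the treatment protocol gives 2, so the p-values below measure the spread between these libraries, part of which may be technical.

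PRC2 methylates histone H3 at H3K27, and H3K27me3 marks silent chromatin, among it genes that specify other lineages. EZH1 or EZH2 is its catalytic subunit, EED and SUZ12 are needed for its activity, and the histone-binding proteins RBBP4 and RBBP7 are shared with several other chromatin complexes. JARID2 is an accessory subunit that helps to recruit and activate PRC2. PRC1 is a ubiquitin ligase for histone H2A (H2AK119): RNF2 (RING1B) or RING1 (RING1A) is its catalytic ring subunit, and BMI1 (PCGF4) is one of the partners that define the canonical form. In tumours of the sympathetic lineage such as neuroblastoma, EZH2 is known as a repressor of differentiation genes.

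Several subunits are encoded by pairs of paralogous genes, and their sequences are shown because the values of each gene rest on reads being told apart. The stretches printed are the most alike 60 bases, without a gap, of the aligned coding sequences of each pair, taken from GENCODE M21 transcripts (GRCm38 annotation, coding strand, 5′ to 3′) with the transcript of longest coding sequence for each gene. Capitals mark the bases that differ between both genes of a pair.
Ezh1: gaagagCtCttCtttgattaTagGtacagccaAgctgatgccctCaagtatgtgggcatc
Ezh2: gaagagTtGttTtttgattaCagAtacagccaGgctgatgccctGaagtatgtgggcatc
Rbbp4: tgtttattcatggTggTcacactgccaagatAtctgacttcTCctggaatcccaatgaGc
Rbbp7: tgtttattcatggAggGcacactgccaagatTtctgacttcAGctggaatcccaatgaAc
Rnf2: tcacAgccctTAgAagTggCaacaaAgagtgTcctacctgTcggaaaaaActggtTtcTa
Ring1: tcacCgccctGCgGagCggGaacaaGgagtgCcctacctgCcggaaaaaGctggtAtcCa

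Even in these stretches *Ezh1* and *Ezh2* differed at 7 of 60 bases, *Rbbp4* and *Rbbp7* at 6, and *Rnf2* and *Ring1* at 12. Identity was counted over the bases aligned without a gap, so coding bases opposite a gap were left out. It was 73.8% of 2020 bases for *Ezh1* and *Ezh2*, 78.7% of 1269 for *Rbbp4* and *Rbbp7*, and 73.2% of 912 for *Rnf2* and *Ring1*. The longest run of identical bases was 17, 20 and 14 bases, respectively. Some members shared longer stretches with transcripts of other genes, among them processed pseudogenes. For *Bmi1*, 31.1% of the 31-base words of the transcript also occurred in transcripts of other genes, and 30.4% in the processed pseudogene *Gm5946* alone. The share was 15.3% for *Rbbp7* (pseudogene *Gm6382*), 5.89% for *Rbbp4*, 0.783% for *Suz12* and 0.151% for *Jarid2*. It was 0% for *Ezh1*, *Ezh2*, *Eed*, *Rnf2* and *Ring1*. How reads matching several places were counted is not given in the sources used here, so the values of *Bmi1* and *Rbbp7* are less certain on this point than those of the other members.

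The main values are regularized log2 counts (rlog), a log2 scale on which the counts of weakly expressed genes are pulled towards the mean of the gene. The deposited values carry no decimals unless they lie between -1 and 1, and each printed number thus covers a span of 1 log2 unit. The intervals given for rlog differences hold for these rounded and shrunken values and are not limits on the ratio of counts. *Npm1* (ENSMUSG00000057113), the target of the hairpin, had an rlog value of 10 in all 3 CTR libraries and of 8 in all 3 NPM1 KD libraries. The groups did not overlap, and the log2 difference was -2.0 ± 0.33 (SE, n = 3 and 3, limma adjusted p = 3.23e-06). Across the 5752 genes tested, whose mean rlog value was at least that of a normalized count of 10, limma called 4 genes higher (0.0695%) and 24 genes lower (0.417%) in the NPM1 KD libraries, with 0.05 as the limit of the adjusted p, and the median log2 difference was 0.00.

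Some markers of the cell line moved with the treatment. Of 17 neuroblastoma identity markers, 3 were at 0 in every library, among them *Nefl* and *Nefm*, and 10 were tested, of which 0 rose and 2 fell. *Chgb*, a granin of secretory vesicles, had a log2 difference of -1.67 (limma adjusted p = 0.0011), and *Chga*, another granin, of -1.33 (limma adjusted p = 0.026). The call of *Chga* was lost without any 1 of the 6 libraries (limma adjusted p = 0.0704 to 0.248), and that of *Chgb* without CTR replicate 1 or 2 (0.112 and 0.113). Of the 10 tested markers 8 had a log2 difference below 0, with a median of -1.0 beside 0.00 over all genes tested. In 4 of them that did not pass the threshold, among them *Stmn2*, a regulator of microtubules in neurons, the groups did not overlap and the log2 difference was -1.0 (limma adjusted p = 0.0791). Over all genes tested on rlog values, 3.41% had groups that did not overlap and were lower upon NPM1 KD. The summed rlog value of the 17 markers was 71.3 to 74.4 in CTR and 63.4 to 66.5 upon NPM1 KD. Of 19 markers of other cell types, 12 were at 0 in every library, among them *Ptprc*, *Gfap* and *Col1a2*. Their summed rlog value was -1.54 to -0.58 in CTR and -1.92 to -0.765 upon NPM1 KD. The part of these shifts in the values of the Polycomb genes was not tested, and fewer cells of a state and less RNA per cell cannot be told apart in bulk RNA.

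The table of group comparisons also holds the authors' mean of the normalized counts of each gene over all 6 libraries, to many digits. Since each library contributes whole reads divided by its size factor, only a few sets of reads can give such a mean, and the rlog values narrow these further. In this way 1 set of whole reads was recovered for 4529 of the 4985 genes with a mean normalized count of 5 to 25, among them *Ezh1*, *Eed*, *Suz12*, *Ring1* and *Bmi1*. The size factors were 1.24, 1.3 and 1.11 in CTR and 0.784, 0.833 and 0.961 upon NPM1 KD, so every NPM1 KD library was shallower than every CTR library. A single read was worth 0.768 to 0.897 normalized counts in CTR and 1.04 to 1.28 upon NPM1 KD. The recovered reads are an added view, chosen after seeing the data, in which limma voom called 18 of 4529 genes higher (0.397%) and 34 lower (0.751%).

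None of the Polycomb members passed the test in either set of values. Of the 8 members tested on rlog values with limma, 0 were higher and 0 were lower at an adjusted p below 0.05, and 1 (*Eed*) had an unadjusted p below 0.05, against 14.1% of all genes tested. Of the 5 members with recovered reads, 0 passed the adjusted threshold with limma voom and 0 had an unadjusted p below 0.05, against 15.7% of the genes tested in that way. CTR and NPM1 KD overlapped for each of these 8 and 5 members. The background share of genes whose groups did not overlap was 2.19% higher and 3.41% lower for rlog values, and 8.92% higher and 13.5% lower for recovered reads.

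**Figure D1:**
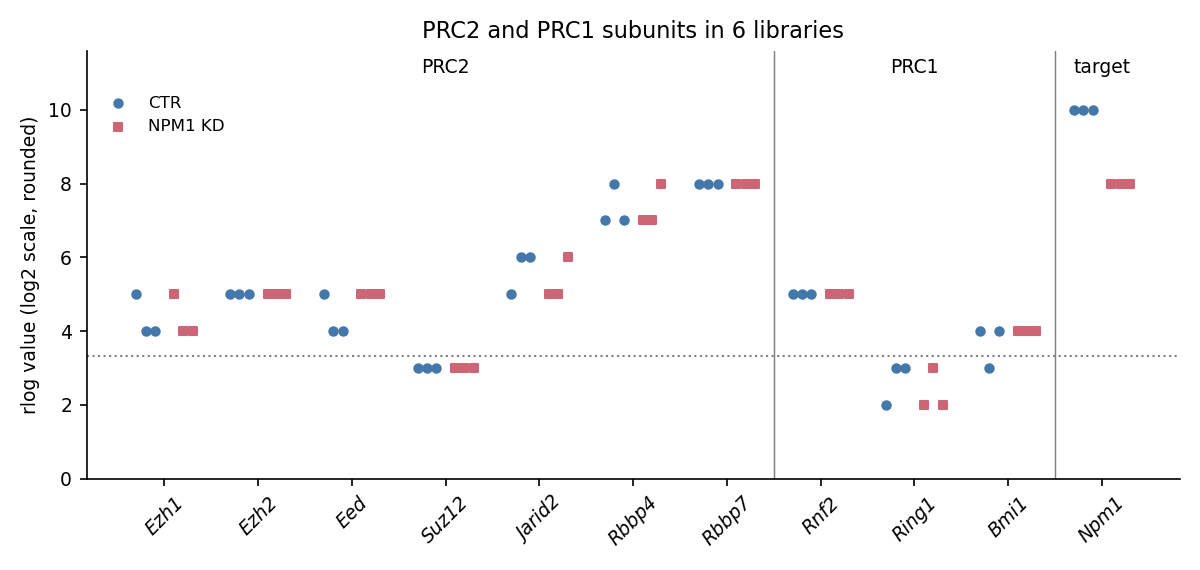
Rlog value (log2 scale, rounded to whole numbers in the deposited table) of the 7 PRC2 genes, the 3 PRC1 genes and Npm1; each point is 1 library, circles CTR and squares NPM1 KD, and the dotted line marks the mean value a gene needed to be tested. CTR and NPM1 KD overlap for all 10 subunits, whereas Npm1 stands at 10 in CTR and at 8 upon NPM1 KD.

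Among the catalytic subunits of PRC2, *Ezh2* (ENSMUSG00000029687) had an rlog value of 5 in all 6 libraries. The log2 difference was 0.00 with a 95% interval of -0.65 to 0.65 (n = 3 and 3, limma adjusted p = 1). A value that does not vary is common in this table: 40.2% of the genes tested, and 3 of the 8 members tested (*Ezh2*, *Rbbp7* and *Rnf2*), had 1 rlog value in all libraries. The mean of *Ezh2*, 36.1 normalized counts, was compatible with 10 sets of whole reads, which placed the ratio of NPM1 KD to CTR between -0.22 and 0.87 on the log2 scale, with 8 sets above 0 and 2 below. Across these sets the mean normalized count ranged from 25.5 to 38.9 in CTR and from 33.4 to 46.7 upon NPM1 KD. The highest of these log2 ratios, 0.87, lay above the upper end of the rlog interval, 0.65. The deposited values thus leave the direction for *Ezh2* undetermined.

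*Ezh1* (ENSMUSG00000006920), the paralog known for its weaker methyltransferase activity and its expression in non-dividing cells, had rlog values of 5, 4 and 4 in CTR and of 5, 4 and 4 upon NPM1 KD. Replicate 1 was the highest in each group, and the groups had the same values, with a log2 difference of 0.00 (95% interval -0.65 to 0.65). The recovered reads were 36, 16 and 16 in CTR and 22, 14 and 17 upon NPM1 KD, or 29.0, 12.3 and 14.4 and then 28.1, 16.8 and 17.7 normalized counts. After scaling for depth the means were 18.5 ± 9.11 in CTR and 20.9 ± 6.26 upon NPM1 KD (SD, n = 3 each). The log2 difference of the reads was 0.22 ± 0.34 (SE, limma voom adjusted p = 0.78), within the spread of the libraries.

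*Eed* (ENSMUSG00000030619), the subunit that binds methylated H3K27 and stimulates the enzyme, had the largest rlog difference of the members. Its rlog values were 5, 4 and 4 in CTR and 5 in all 3 NPM1 KD libraries, so the groups overlapped at 5. The log2 difference was 0.67 ± 0.33 (SE, 95% interval 0.02 to 1.31, unadjusted p = 0.0426, limma adjusted p = 0.33). The recovered reads were 31, 26 and 22 in CTR and 19, 23 and 27 upon NPM1 KD. These became 24.97, 19.97 and 19.74 normalized counts in CTR and 24.2, 27.6 and 28.1 upon NPM1 KD, and the order of the raw reads was turned by depth. The mean was 21.6 ± 2.96 normalized counts in CTR and 26.7 ± 2.10 upon NPM1 KD (SD, n = 3 each), a ratio of 1.24, and the difference did not pass the test (log2 difference 0.32 ± 0.28, 95% interval -0.25 to 0.89, limma voom adjusted p = 0.591). Computed from these reads without rounding, the rlog values of *Eed* were 4.61, 4.46 and 4.46 in CTR and 4.59, 4.68 and 4.69 upon NPM1 KD, so the whole numbers in the table spread the groups further apart than the reads did.

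*Suz12* (ENSMUSG00000017548), the scaffold that holds PRC2 together, had an rlog value of 3 in all 6 libraries and a mean below the filter, so it was not tested on rlog values. Its reads were far from constant. They numbered 14, 13 and 11 in CTR and 3, 3 and 15 upon NPM1 KD, or 11.3, 9.98 and 9.87 and then 3.83, 3.6 and 15.6 normalized counts. NPM1 KD replicates 1 and 2 lay below every CTR library and replicate 3 lay above every CTR library. The means were 10.4 ± 0.782 in CTR and 7.68 ± 6.87 upon NPM1 KD (SD, n = 3 each), and the log2 difference was -0.53 ± 0.51 (SE, 95% interval -1.56 to 0.51, limma voom adjusted p = 0.631).

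**Figure D2:**
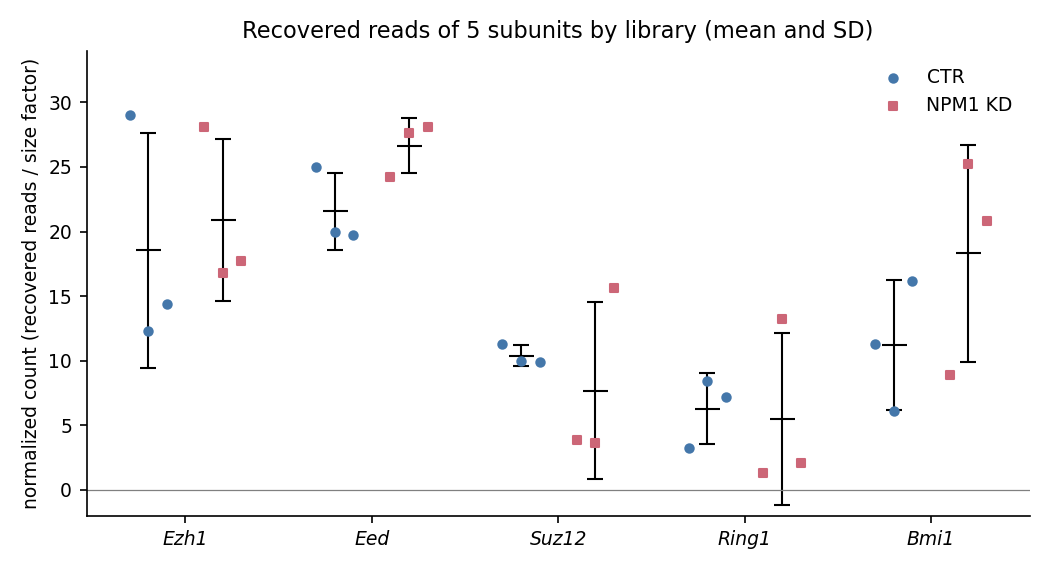
Normalized count (recovered whole reads divided by the size factor of the library, linear axis) of 5 subunits; each point is 1 library, circles CTR and squares NPM1 KD, and bars show the mean and SD of 3 libraries. The NPM1 KD libraries of Suz12 span 3.6 to 15.6 and those of Ring1 1.28 to 13.2, and CTR and NPM1 KD overlap for all 5 genes.

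*Jarid2* (ENSMUSG00000038518) had rlog values of 5, 6 and 6 in CTR and of 5, 5 and 6 upon NPM1 KD. Replicate 1 was low and replicate 3 high in both groups, and the log2 difference was -0.33 ± 0.34 (SE, 95% interval -0.99 to 0.33, limma adjusted p = 0.713). Its mean of 46.6 normalized counts allowed 7 sets of reads, with 5 below 0 and 2 above, and log2 ratios of -0.74 to 0.22. In each of these sets NPM1 KD replicate 1 had 9 to 34 reads, and CTR replicate 2 had 64 to 101.

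The histone-binding subunits had the same mean rlog value in CTR and upon NPM1 KD. *Rbbp4* (ENSMUSG00000057236) had values of 7, 8 and 7 in CTR and 7, 7 and 8 upon NPM1 KD, and the log2 difference was 0.00 (95% interval -0.68 to 0.68). Both groups held the same set of values, with the high library being replicate 2 in CTR and replicate 3 upon NPM1 KD. *Rbbp7* (ENSMUSG00000031353) had a value of 8 in all 6 libraries, with a log2 difference of 0.00 (95% interval -0.67 to 0.67). Their means, 177 and 284 normalized counts, were too high for reads to be recovered.

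Among the ring subunits of PRC1, *Rnf2* (ENSMUSG00000026484) had an rlog value of 5 in all 6 libraries, with a log2 difference of 0.00 (95% interval -0.65 to 0.65). Its mean of 29.7 normalized counts allowed 4 sets of reads, with 3 above 0 and 1 below, and log2 ratios of -0.25 to 0.66. *Ring1* (ENSMUSG00000024325), its paralog, was the least read of the members, with 37 reads in all. Its rlog values were 2, 3 and 3 in CTR and 2, 3 and 2 upon NPM1 KD, below the filter. The reads numbered 4, 11 and 8 in CTR and 1, 11 and 2 upon NPM1 KD, which gave 3.22, 8.45 and 7.18 and then 1.28, 13.2 and 2.08 normalized counts. NPM1 KD replicate 2 held most of the reads of its group and was the highest of all 6 libraries. The means were 6.28 ± 2.73 and 5.52 ± 6.67 (SD, n = 3 each), and the log2 difference was -0.64 ± 0.81 (SE, 95% interval -2.27 to 1.00, limma voom adjusted p = 0.731). The interval covered both a loss and a gain. What the few reads and the spread between libraries each contribute to its width was not tested.

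*Bmi1* (ENSMUSG00000026739), which joins the ring subunit and raises its ligase activity, had rlog values of 4, 3 and 4 in CTR and 4 in all 3 NPM1 KD libraries. The log2 difference of rlog values was 0.33 ± 0.36 (SE, 95% interval -0.37 to 1.04, limma adjusted p = 0.713). The recovered reads were 14, 8 and 18 in CTR and 7, 21 and 20 upon NPM1 KD, or 11.3, 6.14 and 16.2 and then 8.93, 25.2 and 20.8 normalized counts. NPM1 KD replicates 2 and 3 lay above every CTR library and replicate 1 lay within the CTR range. The means were 11.2 ± 5.01 in CTR and 18.3 ± 8.42 upon NPM1 KD (SD, n = 3 each), a ratio of 1.64. This was the largest ratio of the 5 members with recovered reads, and it did not pass the test (log2 difference 0.73 ± 0.40, 95% interval -0.08 to 1.55, unadjusted p = 0.0765, limma voom adjusted p = 0.37).

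**Figure D3:**
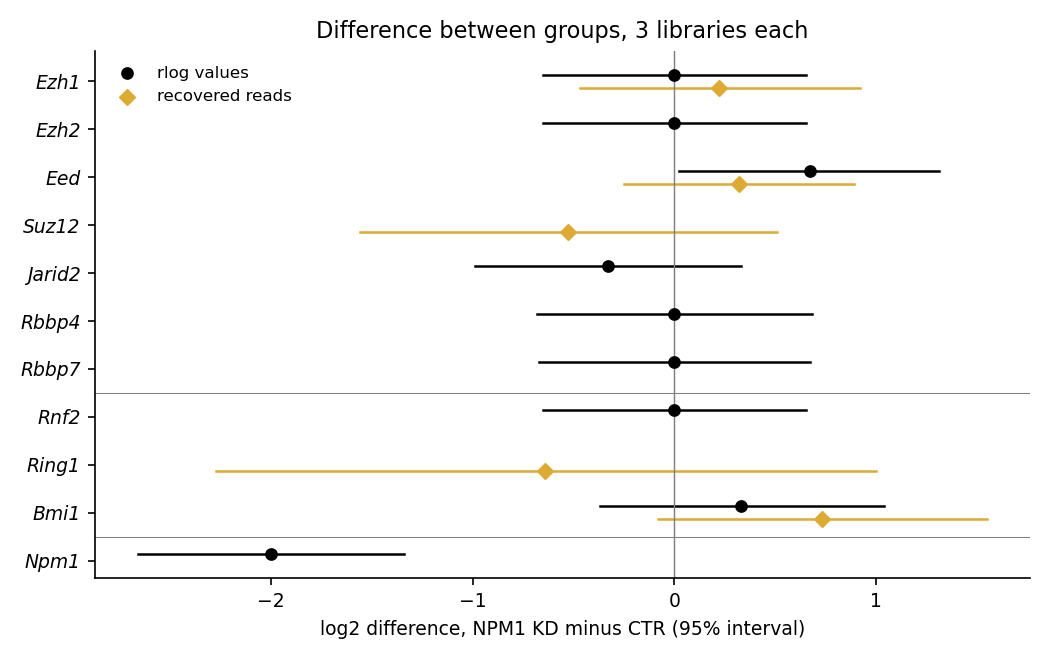
Log2 difference between NPM1 KD and CTR (3 libraries each) with its 95% interval, from rlog values (black circles, limma) and from recovered reads (yellow diamonds, limma voom), for the Polycomb subunits and Npm1. For Eed the rlog interval runs from 0.02 to 1.31 and that of the reads from -0.25 to 0.89; the intervals of the other subunits include 0, and that of Npm1 lies between -2.66 and -1.34.

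The 2 complexes were then set side by side as groups of genes, without a test, since subunits are not replicates of a condition. The 6 tested PRC2 genes had a median log2 difference of 0.00, with a range of -0.33 to 0.67, and the 2 tested PRC1 genes had a median of 0.17, with a range of 0.00 to 0.33, beside a median of 0.00 over all genes tested. Within each complex the reads of individual genes pointed in both directions. Among the PRC2 genes with recovered reads, *Ezh1* and *Eed* had values above 0 and *Suz12* below 0, with a median of 0.22. Among the PRC1 genes, *Bmi1* was above 0 and *Ring1* below 0, with a median of 0.05, beside a median of -0.05 over all 4529 genes. *Ezh1* changed sign when 1 library was left out, at -0.05 without CTR replicate 2 and 0.60 without CTR replicate 1. *Ring1* stayed below 0, from -1.48 (without NPM1 KD replicate 2) to -0.19 (without NPM1 KD replicate 3). *Suz12* stayed below 0 as well, from -1.32 (without NPM1 KD replicate 3) to -0.22 (without NPM1 KD replicate 2). *Eed* (0.27 to 0.43) and *Bmi1* (0.36 to 1.14) stayed above 0. With the replicate block, which pairs no samples, *Ring1* was at 0.11 and *Suz12* at -0.16. The mean rlog value of the 7 PRC2 genes minus that of the 3 PRC1 genes was 1.76, 1.76 and 1.29 in CTR and 1.76, 1.29 and 1.90 upon NPM1 KD. The range of this contrast in CTR lay within that upon NPM1 KD. It is given for the shift between groups only, as levels of different genes were not set per transcript length.

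**Figure D4:**
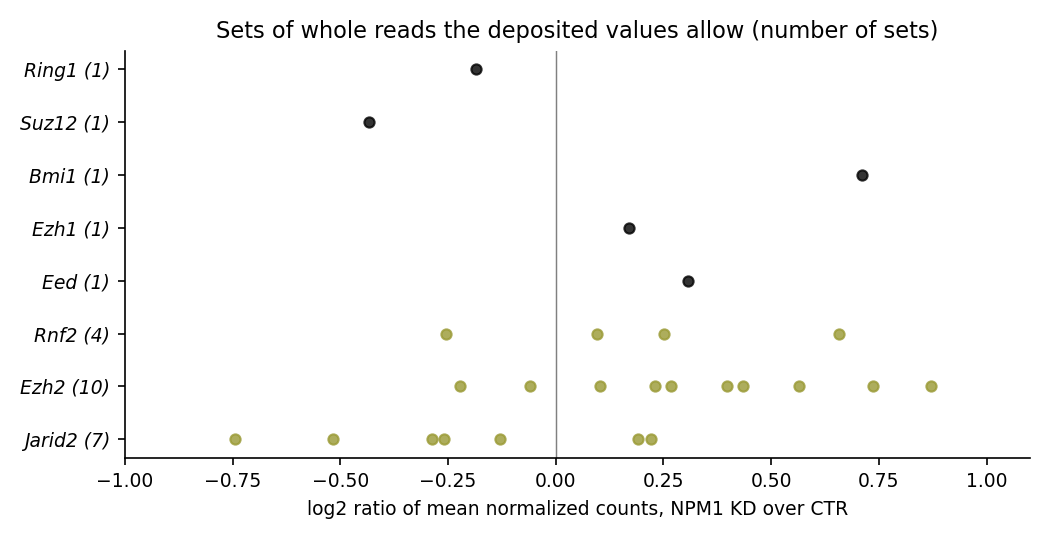
Log2 ratio of the mean normalized count of NPM1 KD to that of CTR for every set of whole reads that the deposited mean and rlog values allow; each point is 1 set and the number of sets is in parentheses. Ring1, Suz12, Bmi1, Ezh1 and Eed have 1 set each, whereas the sets of Rnf2, Ezh2 and Jarid2 fall on both sides of 0, from -0.25 to 0.66, from -0.22 to 0.87 and from -0.74 to 0.22.

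The rlog patterns of the members over the 6 libraries were not particular to them. For each member with values that varied, the tested genes with exactly the same steps between libraries were counted, and those closest in mean normalized count are named. The pattern of *Bmi1* was held by 90 other genes of 5752 (closest *Coasy*, *Rara* and *Usf1*), and that of *Eed* by 43 (closest *E2f4*, *Soga3* and *Sobp*). The pattern of *Ezh1* was held by 36 genes (closest *Slc25a33*, *Tmem200a* and *Gga3*), that of *Rbbp4* by 24 (closest *Dkk1*, *Gm12856* and *Tulp3*), that of *Jarid2* by 20 (closest *Pcna*, *Ociad1* and *Kif23*), and that of *Ring1* by 12 (closest *Fam177a2*, *Gpn2* and *Traf4*).

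Genes with related roles were read from 10 further lists. On rlog values 0 of the 51 genes tested in them passed the adjusted threshold of limma and 8 had an unadjusted p below 0.05, a share near the 14.1% of all genes tested. In the recovered reads 2 of 51 passed the threshold of limma voom, 1 in each direction, beside 0.397% higher and 0.751% lower over all genes so tested, and 6 had an unadjusted p below 0.05, beside 15.7%. The gene that rose was *Bap1*, the catalytic subunit of the PR-DUB complex that removes the ubiquitin placed by PRC1. It had 7, 7 and 13 reads in CTR and 13, 25 and 18 upon NPM1 KD, which gave 5.64, 5.38 and 11.7 and then 16.6, 30.0 and 18.7 normalized counts. The groups did not overlap, and the log2 difference was 1.56 ± 0.40 (SE, n = 3 and 3, limma voom adjusted p = 0.0417). On rlog values *Bap1* read 3, 3 and 4 against 4, 4 and 4, a log2 difference of 0.67 (limma adjusted p = 0.396).

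The gene that fell was *Mta1*, a subunit of the NuRD deacetylase complex, which also contains RBBP4 and RBBP7. It had 39, 34 and 38 reads in CTR and 5, 5 and 14 upon NPM1 KD, or 31.4, 26.1 and 34.1 and then 6.38, 6.00 and 14.6 normalized counts. The groups did not overlap, and the log2 difference was -1.75 ± 0.39 (SE, n = 3 and 3, limma voom adjusted p = 0.0268), whereas the rlog difference was -0.67 (limma adjusted p = 0.33). Both calls rested on all libraries: leaving out any 1 of the 6 raised the limma voom adjusted p to between 0.0706 and 0.206 for *Bap1* and to between 0.0516 and 0.128 for *Mta1*, with log2 differences of 1.31 to 1.87 and of -2.18 to -1.53.

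**Figure D5:**
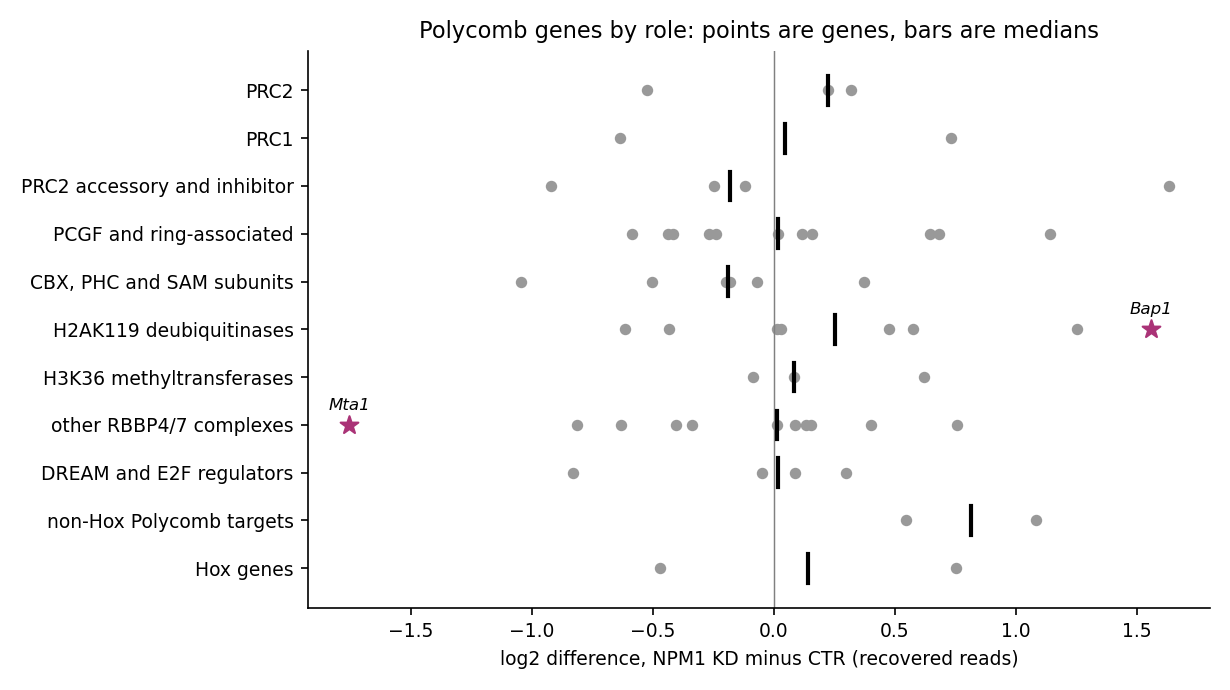
Log2 difference between NPM1 KD and CTR in the recovered reads (limma voom) for genes grouped by role; each point is 1 gene, the bar is the median of the list, and stars mark genes with an adjusted p below 0.05. Bap1, at 1.56, and Mta1, at -1.75, are the genes past the threshold, and the PRC2 and PRC1 genes lie between -0.64 and 0.73.

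The accessory subunits define the forms of PRC2. Of 8 such genes, with the inhibitor *Ezhip* among them, 2 were at 0 in every library and 1 was tested on rlog values: *Mtf2*, a Polycomb-like protein that recruits PRC2 to CpG islands, with a log2 difference of -0.33 (limma adjusted p = 0.713). Of the 4 with recovered reads 0 rose and 0 fell, with a median of -0.18 and values from -0.92 for *Aebp2* to 1.63 for *Lcor* (lowest limma voom adjusted p = 0.337). *Lcor* had 4, 4 and 1 reads in CTR and 8, 5 and 7 upon NPM1 KD, and *Aebp2* had 18, 9 and 11 reads in CTR and 5, 4 and 4 upon NPM1 KD.

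Among the PCGF proteins and partners of variant PRC1, 14 of 22 genes were tested on rlog values, with a median of 0.00 and a range of -0.33 to 0.67. The extremes were *Max* (0.67, limma adjusted p = 0.33), a partner of the MGA protein, and 5 genes at -0.33, among them *Pcgf2*, the paralog of *Bmi1*. *Tfdp1* was at 0.33. In the recovered reads of 11 genes the median was 0.02. Among the chromobox, polyhomeotic and SAM-domain subunits that complete canonical PRC1, 4 of 11 were tested, with a median of 0.00. *Cbx6*, a reader of H3K27me3, had rlog values of 5 in all CTR libraries and 4, 5 and 4 upon NPM1 KD (-0.67, limma adjusted p = 0.33), and *Phc1* and *Phc2* had 4 in all 6 libraries. In the recovered reads 5 of 6 such genes had values below 0, with a median of -0.19 and a lowest limma voom adjusted p of 0.589.

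Of the H2A deubiquitinases and their partners, 6 of 13 were tested on rlog values, *Bap1* included, with a median of 0.00. *Foxk2* and *Ogt*, which are bound by PR-DUB, were both at -0.67 (limma adjusted p = 0.33), and in the recovered reads of 8 genes the median was 0.25. The H3K27 demethylase *Kdm6b* had an rlog value of 6 in all 6 libraries. Of the H3K36 methyltransferases, whose mark limits PRC2, 3 of 5 were tested: *Nsd2* and *Nsd3* were at 0.00 and *Ash1l* at 0.33. Of the genes of other complexes that hold RBBP4 or RBBP7, 14 of 24 were tested on rlog values with a median of 0.00. Next to *Mta1*, *Hat1* was at -0.33 and *Bptf* at 0.33. Of the E2F and pocket-protein genes, 4 of 8 were tested, with *E2f4* at 0.67 (limma adjusted p = 0.33) and *E2f1* and *Rbl1* at 0.00. The recovered reads of 4 such genes had a median of 0.02. There *E2f4* was at 0.09 (limma voom adjusted p = 0.912) and *Rbl1* at -0.83 (limma voom adjusted p = 0.302).

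Of all genes listed, 44.6% were at 0 in every library. Among genes known as Polycomb targets, 30 of 38 *Hox* genes were at 0 in every library and 1 was tested on rlog values. This gene, *Hoxc9*, had values of 4, 4 and 5 in CTR and 5 in all NPM1 KD libraries, a log2 difference of 0.67 (95% interval 0.02 to 1.31, limma adjusted p = 0.33). *Hoxc10* and *Hoxc8* had recovered reads, with log2 differences of 0.76 and -0.47 (limma voom adjusted p = 0.4 and 0.776). Of 20 other targets 9 were at 0, a share near that of all genes, and 3 were tested on rlog values. *Cdkn2a*, the cell cycle inhibitor locus repressed by BMI1 in many cell types, had a value of 5 in all 6 libraries, and *Cdkn1a* had 6, 5 and 5 in each group. *Gata4*, a transcription factor of heart and endoderm, had 15, 18 and 16 reads in CTR and 18, 25 and 32 upon NPM1 KD, or 12.1, 13.8 and 14.4 and then 23.0, 30.0 and 33.3 normalized counts. Its groups did not overlap, but the log2 difference of 1.09 ± 0.31 did not pass the threshold (SE, limma voom adjusted p = 0.0772), nor did that of rlog values, 0.67 (limma adjusted p = 0.33).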

How the data were processed

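Total RNA of 3 CTR and 3 NPM1 KD libraries was read as nanopore cDNA. Per the labels' processing notes the authors used GRCm39, minimap2, featureCounts and DESeq2, without versions. The deposited rlog score per library was rounded by the authors, and their comparison table gives a mean normalized count over all libraries; its fold changes, test statistics and p-values were not used. Of 26913 rows, 257 that repeat a gene ID were dropped.

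Genes kept by the filter (mean rlog of 3.32 or more, the log2 of 10) entered limma 3.58.1 in R 4.3.3 (lmFit, eBayes with trend). The variance within groups was not allowed below 0.0833, the variance of rounding, and p-values were adjusted by Benjamini-Hochberg at a threshold of 0.05. Library totals are not given by these values, and depth is known only through the size factors. These were solved from genes with few reads, and all sets of whole reads matching the printed digits of the mean and, within 0.51, the rlog values were listed. For 2550 genes the mean alone gave 1 set, and of 15300 rlog values computed from these reads 15272 rounded to the deposited one. The rlog model used for this was fitted to the deposited values of 400 genes. The scripts were tested on simulated data. Alignments used Biopython 1.88.

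The members, the gene lists and the tests were chosen with earlier results of these data known. The genes named are all members, *Npm1*, and from each list of Polycomb-related genes and of identity markers those past the threshold and up to 3 with the largest rlog difference; *Aebp2*, *Lcor*, *Hoxc10* and *Hoxc8* were named after their reads were seen. Alternatives were the variance floor, the trend, 3 filters, the replicate block, centring and leaving out each library.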

Additional observations from a re-analysis of the deposited data

How the results depend on the processing

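For the 8 members tested on rlog values, 106 of 106 combinations of a member with an alternative stayed on the same side of the threshold. These include the main fit of the recovered reads for *Ezh1*, *Eed* and *Bmi1*, whereas *Suz12* and *Ring1* are not among them. *Ezh2*, *Rbbp7* and *Rnf2* had the same rlog value in all libraries, so no alternative could move them and their combinations carry no information. *Ezh1* and *Rbbp4* had a log2 difference of 0.00 in every rlog fit that kept all libraries. The lowest limma adjusted p was 0.179 (*Eed* without the intensity trend). *Npm1* passed in every alternative run, with a log2 difference of -2.0. The number of genes called over the whole table did depend on the processing. Against 4 higher and 24 lower, it was 123 and 178 without the floor on the variance, 132 and 218 without the trend, 1 and 10 with every gene not at 0, and 1 and 7 with the replicate block. Leaving out 1 library gave 0 to 2 higher and 5 to 9 lower. The cause was not tested. *Chga* lost its call without the floor, with every gene not at 0, with the block and without any 1 library (adjusted p = 0.0678 to 0.248), and *Chgb* without the floor (0.0957) or CTR replicate 1 or 2 (0.112 and 0.113). The median of the tested PRC1 genes ranged from 0.00 to 0.25, and that of the PRC2 genes from -0.08 to 0.08. Same-numbered libraries of both groups did not deviate together (correlations of 0.0089, 0.0013 and 0.030 for rlog values), so the block pairs no samples. In the recovered reads the block gave 48 higher and 75 lower genes, against 18 and 34, and leaving out 1 library gave 0 to 6 and 0 to 11. It gave 0 calls among the members. The rlog values are rounded, every NPM1 KD library was shallower than every CTR library and each group has 3 libraries, and what each of these contributes to the number of calls was not tested.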
